A study of Mus musculus with 9 samples.

Results

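The 10 genes described here encode chemokines and cytokines that intestinal epithelium is known to make, together with the secreted iron-binding protein lactoferrin: Ccl25, Ccl28, Ccl20, Cxcl16, Cx3cl1, Il33, Il18, Il15, Tslp and Ltf. They were chosen by symbol, and each had 1 row in both deposited tables, 10 of 23951 genes in each. RNA had been sequenced from crypts of the mouse jejunum, which were freed from the tissue with 3 mM EDTA and a 70 micron filter, in 9 libraries that formed 3 groups of 3. Smad4 KO crypts had the genotype Smad4f/f;Villin-CreER(T2), in which tamoxifen activates a recombinase in the intestinal epithelium and removes Smad4, the shared signal carrier of the TGF-beta and BMP pathways. Double mutant crypts had the genotype Smad4f/f; Ex3f/+;Villin-CreER(T2), which also removes exon 3 of 1 Ctnnb1 allele, so that beta-catenin made from it escapes degradation. Mutant mice received tamoxifen on 4 successive days and crypts were taken 1 day later. The control group is labelled control mouse with vehicle, while the design text describes mice that were not injected, and whether controls carried the floxed alleles or the recombinase is not stated. Effects of tamoxifen or of the recombinase itself therefore cannot be told apart from those of the deleted alleles. The labels do not say whether each library came from a separate mouse, so p-values measure the spread between these libraries.

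Chemokines are small secreted or membrane-held proteins that direct the migration of white blood cells through receptors on those cells, and cytokines change the survival and activity of the cells that receive them. In the small intestine, epithelial Ccl25 draws lymphocytes that carry Ccr9 into the mucosa, and epithelial Il15 maintains the lymphocytes that live between the epithelial cells. Il33, Il18 and Tslp alert immune cells to damage, parasites or microbes, and lactoferrin withholds iron from bacteria.

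Values were FPKM, fragment counts scaled to transcript length and library size, as deposited. Each mutant group shared a table with the same 3 controls, and the tables were normalized separately, so every comparison was made inside 1 table. Values of a group are given for its libraries 0, 1 and 2 in turn. The absolute depth is unknown. Relative to control library 0, the steps between low values gave depths of 0.966 to 1.42, and 11196 to 11935 genes reached 1 FPKM in a library. Smad4 itself checked the labels, with a mean of 10.6 ± 0.56 FPKM in Smad4 KO and 49.8 ± 5.02 FPKM in control crypts, and 10.4 ± 0.64 FPKM in double mutants and 52.0 ± 5.96 FPKM in their controls (SD, n = 3 each). Smad4 was low in both mutant groups and so does not tell them apart. Ctnnb1, whose total level need not change when 1 exon is lost, overlapped the controls in both comparisons, and the exon 3 allele was not checked by these values. All 6 epithelial markers were measured in every library, and their summed level was 2664 to 3980 FPKM in Smad4 KO and 2736 to 3538 FPKM in control crypts, and 3140 to 3517 FPKM in double mutants and 2821 to 3690 FPKM in their controls. Genes were tested with limma on log2(FPKM + 1) where the mean over the 6 libraries of a table was at least 1 FPKM, and called at an adjusted p below 0.05 over all genes tested. Of the 10 genes, 8 passed this filter in each table, and Ccl28 and Tslp did not. Ltf passed only through its mutant libraries, since its control level was below 1 FPKM.

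In control crypts the levels spanned a wide range, from Ccl25, which exceeded 99.3% of all rows, to Ccl28, which was listed at 0. The control means in the table with Smad4 KO ran, from high to low, 429 ± 169 FPKM for Ccl25, 52.1 ± 48.2 FPKM for Il18, 27.0 ± 8.71 FPKM for Cx3cl1, 8.07 ± 2.04 FPKM for Il15 and 5.12 ± 1.66 FPKM for Il33 (SD, n = 3). They continued with 3.15 ± 0.885 FPKM for Ccl20, 2.28 ± 0.294 FPKM for Cxcl16, 0.435 ± 0.0267 FPKM for Ltf and 0.123 ± 0.0343 FPKM for Tslp. Neighbours whose control libraries overlapped, and whose order is therefore within the spread, were Il18 and Cx3cl1, Il15 and Il33, Il33 and Ccl20, and Ccl20 and Cxcl16. Ccl25 stood clear of Il18, Cx3cl1 of Il15, Cxcl16 of Ltf and Ltf of Tslp. The order of the means was the same in the other table. Ccl28, a chemokine for IgA-secreting cells that is known best from the colon, was listed at 0 FPKM in every library of both tables, as were 5439 of the 23951 rows. Because transcripts of all cells such as Gapdh were listed near 0 in these tables (mean 0.609 FPKM in control crypts), a listed 0 is not read as absence of the transcript.

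**Figure D1:**
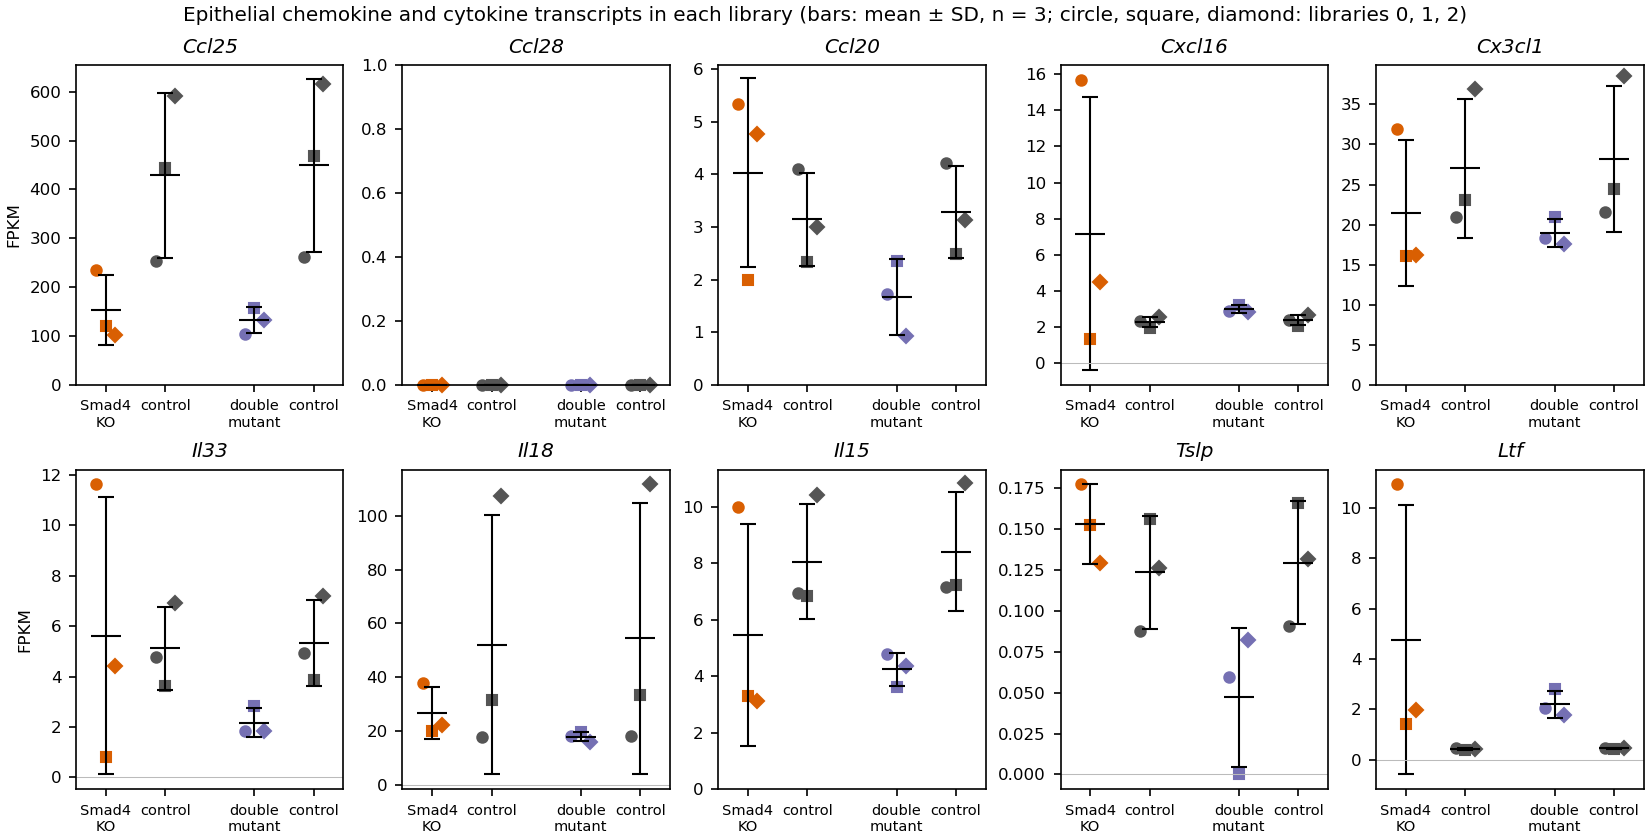
FPKM of each of the 10 genes in every library, with each mutant group left of its controls. Points are libraries, and bars give the mean and SD of 3 libraries. Ccl25 is at 102 to 235 FPKM in Smad4 KO and 105 to 158 FPKM in double mutant crypts, below all of its controls in either table, and Ccl28 is at 0 throughout.

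The sequences before the start sites of Ccl25, Il33 and Ltf are shown because these genes moved in the double mutants or had mutant libraries clear of the controls in both tables. They come from RefSeq for the build GRCm38.p6, which is not the build of the deposited files, and each is the plus strand read 5′ to 3′ up to the base before an annotated start. For Ltf the last 21 bases are left out because another annotated transcript of the gene covers them. Capitals mark the TATA box letters TATAAA in Ccl25 and Il33, and in Ltf a form of the NF-kappaB motif, GGG and CC with any 5 bases between them.
Ccl25, chr8:4349338-4349587: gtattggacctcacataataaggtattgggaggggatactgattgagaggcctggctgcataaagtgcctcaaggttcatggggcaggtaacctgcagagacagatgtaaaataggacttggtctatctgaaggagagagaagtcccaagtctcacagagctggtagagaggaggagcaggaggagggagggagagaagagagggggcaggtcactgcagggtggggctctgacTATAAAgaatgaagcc
Il33, chr19:29924863-29925112: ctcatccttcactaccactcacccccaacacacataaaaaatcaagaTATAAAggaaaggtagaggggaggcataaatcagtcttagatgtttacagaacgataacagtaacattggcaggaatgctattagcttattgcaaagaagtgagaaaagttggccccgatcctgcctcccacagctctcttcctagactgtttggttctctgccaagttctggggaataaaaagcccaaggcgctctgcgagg
Il33, chr19:29945540-29945789: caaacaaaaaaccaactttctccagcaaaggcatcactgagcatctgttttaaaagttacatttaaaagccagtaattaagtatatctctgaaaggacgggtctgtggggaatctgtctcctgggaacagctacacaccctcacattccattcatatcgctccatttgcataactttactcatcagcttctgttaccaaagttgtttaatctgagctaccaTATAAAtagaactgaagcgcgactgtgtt
Ltf, chr9:111019042-111019270: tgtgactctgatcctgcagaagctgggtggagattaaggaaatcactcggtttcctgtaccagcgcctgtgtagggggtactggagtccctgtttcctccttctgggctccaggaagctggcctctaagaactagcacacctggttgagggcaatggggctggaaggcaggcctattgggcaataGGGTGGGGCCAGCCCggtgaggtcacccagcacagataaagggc

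The TATAAA of Ccl25 began 16 bases before the start. In Il33, which has starts far apart on chromosome 19, it began 203 bases before the upstream start and 29 bases before the downstream one. Ltf held overlapping matches of the loose NF-kappaB form, with any 5 bases between GGG and CC, that began 65, 61 and 60 bases before the start. Whether NF-kappaB binds them was not tested. Over 32851 windows of 250 bases, TATAAA occurred on either strand in 12.4% and the NF-kappaB motif in 45.8%. Windows were searched for 7 of the 10 genes, without Cxcl16, Il15 and Tslp. Of these 9 windows, 5 held TATAAA and 3 held the NF-kappaB motif. The 5 include both windows of Il33, and their matches began 6 to 203 bases before a start. Enrichment of motifs was not tested. The letters ATCAAAG (TCF factors), GTCTAGAC (the SMAD palindrome) and CAAAGTCCA (HNF4) were in 0 of the 9 windows, against 3.21%, 0.167% and 0.384% of all windows. At shares this low, 0 of 9 windows cannot show that such sites are lacking, and only these exact letters were searched. At the other annotated start of Ccl25, all 250 preceding bases and all 79 bases of the first exon of Ccl25 that begins there lie in exons of Elavl1 on the opposite strand (GENCODE). The library kit does not mark strand, so reads that lie wholly within this overlap cannot be assigned to Ccl25 or Elavl1 by strand. Whether the annotation behind the deposited values holds this exon is not known.

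In Smad4 KO crypts, 0 of the 8 tested genes passed the limma threshold, where 0.0338% of the 11849 genes tested did so. At an unadjusted limma p below 0.05 there were 2 of 8, Ccl25 and Ltf, a share near the 19.1% of all genes tested and so no result about these genes. With the spread pooled over all 9 libraries the count stayed at 0 of 8, against 3.81% of all genes. Ccl25 was below every control, a pattern that 12.2% of all genes tested showed. Ltf was above every control, as were 14.2% of all genes tested. Because Ltf reached the filter only through its mutant libraries, its place is not read against that share. The median log2 fold change of the 8 genes was -0.30, and that of all genes tested was -0.003. This median and the count of 2 of 8 also include Ltf.

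Among the chemokines, Ccl25 had 235, 120.1 and 102 FPKM in the Smad4 KO libraries and 254, 443 and 591 FPKM in the control libraries. Its ranges did not overlap, but the highest Smad4 KO library came close to the lowest control. The Smad4 KO mean of 152 ± 72.0 FPKM was 35.5% of the control mean of 429 ± 169 FPKM (SD, n = 3 each), a log2 fold change of -1.50 (SE 0.43, limma adjusted p = 0.173; exact two-sided permutation p = 0.1, the smallest that 3 against 3 libraries can give). Leaving out single libraries gave log2 fold changes between -1.86 and -1.23. In bulk RNA, fewer cells of a type and less RNA per cell cannot be told apart.

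Cxcl16, a membrane-held chemokine for cells with Cxcr6, had 15.7, 1.33 and 4.475 FPKM in Smad4 KO and 2.345, 1.96 and 2.54 FPKM in control crypts. The Smad4 KO libraries lay on both sides of the tight control values, and library 0 alone carried most of the mean difference. The log2 fold change was 0.87 (SE 0.68, limma adjusted p = 0.531), and 0.13 without Smad4 KO library 0. Ccl20, the ligand of Ccr6, had 5.34, 1.98 and 4.77 FPKM in Smad4 KO and 4.09, 2.34 and 3.005 FPKM in control crypts, with overlapping ranges and a log2 fold change of 0.23 (SE 0.33, limma adjusted p = 0.744). Cx3cl1, the membrane-held chemokine fractalkine, had 32.0, 16.1 and 16.2 FPKM in Smad4 KO and 21.0, 23.1 and 37.0 FPKM in control crypts, also overlapping, with a log2 fold change of -0.35 (SE 0.33, limma adjusted p = 0.601).

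The cytokines overlapped between Smad4 KO and control crypts. Il33, a nuclear alarm signal released from damaged cells, had 11.6, 0.814 and 4.43 FPKM in Smad4 KO and 4.79, 3.64 and 6.915 FPKM in control crypts. Smad4 KO libraries 0 and 1 lay above and below all controls. The means of 5.63 ± 5.51 FPKM in Smad4 KO and 5.12 ± 1.66 FPKM in control crypts differed in the other direction from the log2 fold change of -0.26 (SE 0.69, limma adjusted p = 0.872), which became 0.47 without Smad4 KO library 1. Il18, which inflammasome caspases activate, had 37.9, 20.2 and 22.2 FPKM in Smad4 KO and 17.7, 31.4 and 107 FPKM in control crypts. Here 1 control library was far above all others, and the log2 fold change of -0.59 (SE 0.65, limma adjusted p = 0.656) became 0.12 without it. Il15 had 10.001, 3.285 and 3.11 FPKM in Smad4 KO and 6.94, 6.84 and 10.4 FPKM in control crypts. Smad4 KO libraries 1 and 2 were below every control and library 0 was among them, and the log2 fold change was -0.63 (SE 0.42, limma adjusted p = 0.458). Tslp, which acts on dendritic cells and innate lymphocytes, had 0.177, 0.152 and 0.129 FPKM in Smad4 KO and 0.0878, 0.156 and 0.126 FPKM in control crypts, below the filter in all libraries.

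Ltf had 10.95, 1.415 and 1.96 FPKM in Smad4 KO and 0.4595, 0.406 and 0.438 FPKM in control crypts. All Smad4 KO libraries were above all controls, and library 0 was far above the others. The mean of 4.78 ± 5.35 FPKM in Smad4 KO was 10.99 times the control mean of 0.435 ± 0.0267 FPKM (SD, n = 3 each), with a log2 fold change of 1.62 (SE 0.61, limma adjusted p = 0.239; exact permutation p = 0.1). Without Smad4 KO library 0 the Smad4 KO mean was 1.69 FPKM, 3.89 times the control mean, and the gene no longer reached the filter. Lactoferrin is also stored in neutrophil granules, so the neutrophil markers were set beside it. Of the 10 markers on that list 9 had a row. Their summed level was 0.446 to 1.92 FPKM in Smad4 KO and 0.0830 to 0.238 FPKM in control crypts, without overlap. Elane and Mpo were listed at 0 in all 6 libraries, while S100a8 and S100a9 were above 0 in 2 Smad4 KO libraries and at 0 in the controls. Retnlg was above 0 in every Smad4 KO library and Ngp in Smad4 KO library 2 alone, and both were at 0 in the controls. The part of neutrophil RNA in the Ltf values was not tested.

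In double mutant crypts, Ccl25, Il15 and Il33 fell and Ltf rose. These were 3 of 8 tested genes called lower, where limma called 9.09% of the 11762 genes tested lower, and 1 of 8 called higher, where it called 9.39% higher. The gene called higher was Ltf, which reached the filter only through its mutant libraries, so that count is not read against the share of all genes. All double mutant libraries lay below all controls for Ccl25, Ccl20, Cx3cl1, Il33 and Il15 and above all controls for Cxcl16 and Ltf, 5 and 2 of 8 genes, and each of these patterns was found in 21.3% of all genes tested. The median log2 fold change of the 8 genes was -0.76, and that of all genes tested was -0.001. With the spread pooled over all 9 libraries Ccl25 alone was called lower, 1 of 8 against 6.53% of all genes, and 0 of 8 were called higher, against 8.01%. At an unadjusted limma p below 0.05, Ccl20 joined the 4 called genes, and 36.6% of all genes tested were below that value. Leaving out single libraries left 0 to 2 of the 8 genes called lower and 0 to 1 called higher. The median and the counts of genes above the controls also include Ltf.

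Ccl25 had 105, 158 and 133 FPKM in double mutants and 262, 469 and 616 FPKM in control crypts. The highest double mutant library was well below the lowest control. Ccl25 fell to a mean of 132 ± 26.7 FPKM in double mutants, which was 29.4% of the control mean of 449 ± 178 FPKM (SD, n = 3 each), a log2 fold change of -1.69 (SE 0.33, limma adjusted p = 0.0256; exact permutation p = 0.1). It was also called with the spread pooled over all 9 libraries (limma adjusted p = 0.0297). With fewer libraries the log2 fold change stayed between -2.04 and -1.42, while the call was lost on leaving out any library except control 0, with a limma adjusted p of 0.0503 to 0.0964.

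Ccl20 had 1.73, 2.36 and 0.9175 FPKM in double mutants and 4.22, 2.48 and 3.13 FPKM in control crypts. The groups were separate, but double mutant library 1 and control library 1 were nearly equal, and the log2 fold change of -0.70 (SE 0.26) did not pass (limma adjusted p = 0.109). Cx3cl1 had 18.3, 21.0 and 17.6 FPKM in double mutants and 21.6, 24.5 and 38.6 FPKM in control crypts, again separate by a narrow gap, with a log2 fold change of -0.51 (SE 0.22, limma adjusted p = 0.145), and of -0.27 without control library 2. Cxcl16 had 2.87, 3.25 and 2.84 FPKM in double mutants and 2.42, 2.08 and 2.65 FPKM in control crypts. It was higher in every double mutant library by a small margin, with a log2 fold change of 0.24 (SE 0.13, limma adjusted p = 0.235).

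Il15 had 4.77, 3.61 and 4.37 FPKM in double mutants and 7.16, 7.25 and 10.9 FPKM in control crypts. The groups were well apart. Il15 fell to a mean of 4.25 ± 0.588 FPKM in double mutants, against 8.42 ± 2.115 FPKM in control crypts (SD, n = 3 each), 50.5% of the control mean, with a log2 fold change of -0.83 (SE 0.18, limma adjusted p = 0.0319; exact permutation p = 0.1). The call was lost when the spread was pooled over 9 libraries (limma adjusted p = 0.154) or when genes of low values were kept (0.0607). It was also lost without control 1 (0.0538) or without double mutant 0, 1 or 2 (0.076, 0.0793 and 0.106).

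Il33 had 1.85, 2.83 and 1.825 FPKM in double mutants and 4.94, 3.86 and 7.21 FPKM in control crypts. No double mutant library reached the lowest control. Il33 fell to a mean of 2.17 ± 0.574 FPKM in double mutants, against 5.34 ± 1.71 FPKM in control crypts (SD, n = 3 each), 40.6% of the control mean, with a log2 fold change of -0.98 (SE 0.23, limma adjusted p = 0.0378; exact permutation p = 0.1). The call was lost with the pooled spread (limma adjusted p = 0.292), with sex as a covariate (0.0629), with genes of low values kept (0.0681), and on leaving out any library except control 1 (0.0582 to 0.131).

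Il18 had 18.1, 19.8 and 16.1 FPKM in double mutants and 18.3, 33.3 and 112 FPKM in control crypts. The double mutant libraries were close together near the lowest control, while the controls spread widely, with a coefficient of variation of 10.1% in double mutants and 92.2% in controls. The log2 fold change was -1.15 (SE 0.61, limma adjusted p = 0.222), and -0.44 without control library 2. Tslp had 0.0596, 0 and 0.0821 FPKM in double mutants and 0.0906, 0.166 and 0.1315 FPKM in control crypts, separate but below the filter in every library.

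Ltf had 2.07, 2.81 and 1.77 FPKM in double mutants and 0.474, 0.431 and 0.457 FPKM in control crypts. Every double mutant library was well above the closely spaced controls. Ltf rose to a mean of 2.22 ± 0.5355 FPKM in double mutants, 4.88 times the control mean of 0.454 ± 0.0217 FPKM (SD, n = 3 each), with a log2 fold change of 1.13 (SE 0.18, limma adjusted p = 0.0177; exact permutation p = 0.1). With all genes tested and no filter its limma adjusted p was 0.0204. The call was lost with the pooled spread (limma adjusted p = 0.176) and without double mutant 0 (0.0641) or 2 (0.0727). The summed level of neutrophil markers was 0.0837 to 0.683 FPKM in double mutants and 0.0866 to 0.245 FPKM in control crypts, overlapping. Elane, Ngp and Retnlg were listed at 0 in all 6 of these libraries, and Mpo, S100a8 and S100a9 were above 0 in double mutant library 0 alone. The part of neutrophil RNA in these values was not tested either.

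**Figure D2:**
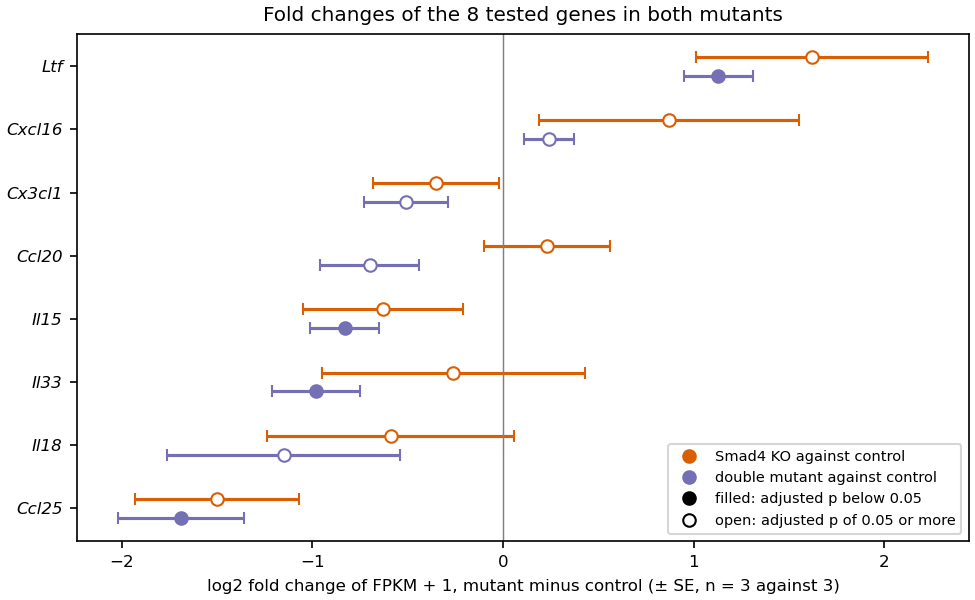
Log2 fold changes on the log2(FPKM + 1) scale, each mutant minus its controls, with SE bars for 3 against 3 libraries. Filled points passed an adjusted p of 0.05, which in double mutants were Ltf at 1.13, Il15 at -0.83, Il33 at -0.98 and Ccl25 at -1.69, and none did so in Smad4 KO crypts.

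The libraries of a group did not vary alike. Among the 8 tested genes, Smad4 KO library 0 was the highest of its group for all 8 and control library 2 was the highest control for 6. The coefficient of variation of Cxcl16 was 105% in Smad4 KO and 12.9% in control crypts, that of Il33 was 97.9% in Smad4 KO and 32.5% in control crypts, and that of Ltf was 112% in Smad4 KO and 6.14% in control crypts. In double mutants these values were 7.68% for Cxcl16, 26.5% for Il33 and 24.2% for Ltf. Markers of enterocytes, the mature absorptive cells of the villus, also set Smad4 KO library 0 apart. Their summed level was 14075, 993.7 and 2203 FPKM in Smad4 KO libraries 0, 1 and 2 and 3659, 4939 and 10415 FPKM in control libraries 0, 1 and 2. T cell markers summed to 215, 16.3 and 74.3 FPKM in the Smad4 KO libraries and to 186.5, 113 and 191.5 FPKM in the controls. Enterocyte markers summed to 1075, 2100 and 2048 FPKM in double mutants and to 3773, 5233 and 10863 FPKM in their controls, and T cell markers to 51.1, 28.9 and 74.3 FPKM in double mutants and to 192, 119 and 199.8 FPKM in their controls. The double mutant ranges of both lists lay below their controls, as did those of Ccl25, Ccl20, Cx3cl1, Il33 and Il15. Among all genes tested, 21.3% showed this pattern. Paneth cell markers summed to 9159 FPKM in Smad4 KO library 0, against 52786 FPKM or more in every other library of that table. Markers of mesenchyme, vessels and blood summed to 27.5, 10.5 and 131 FPKM in Smad4 KO libraries and to 13.0, 7.02 and 10.8 FPKM in their controls, and to 85.0, 7.38 and 9.61 FPKM in double mutants and 13.4, 7.43 and 11.2 FPKM in their controls. Smad4 KO library 2 and double mutant library 0 were thus the highest for these markers. The part of cell composition in the values of the 10 genes was not tested.

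**Figure D3:**
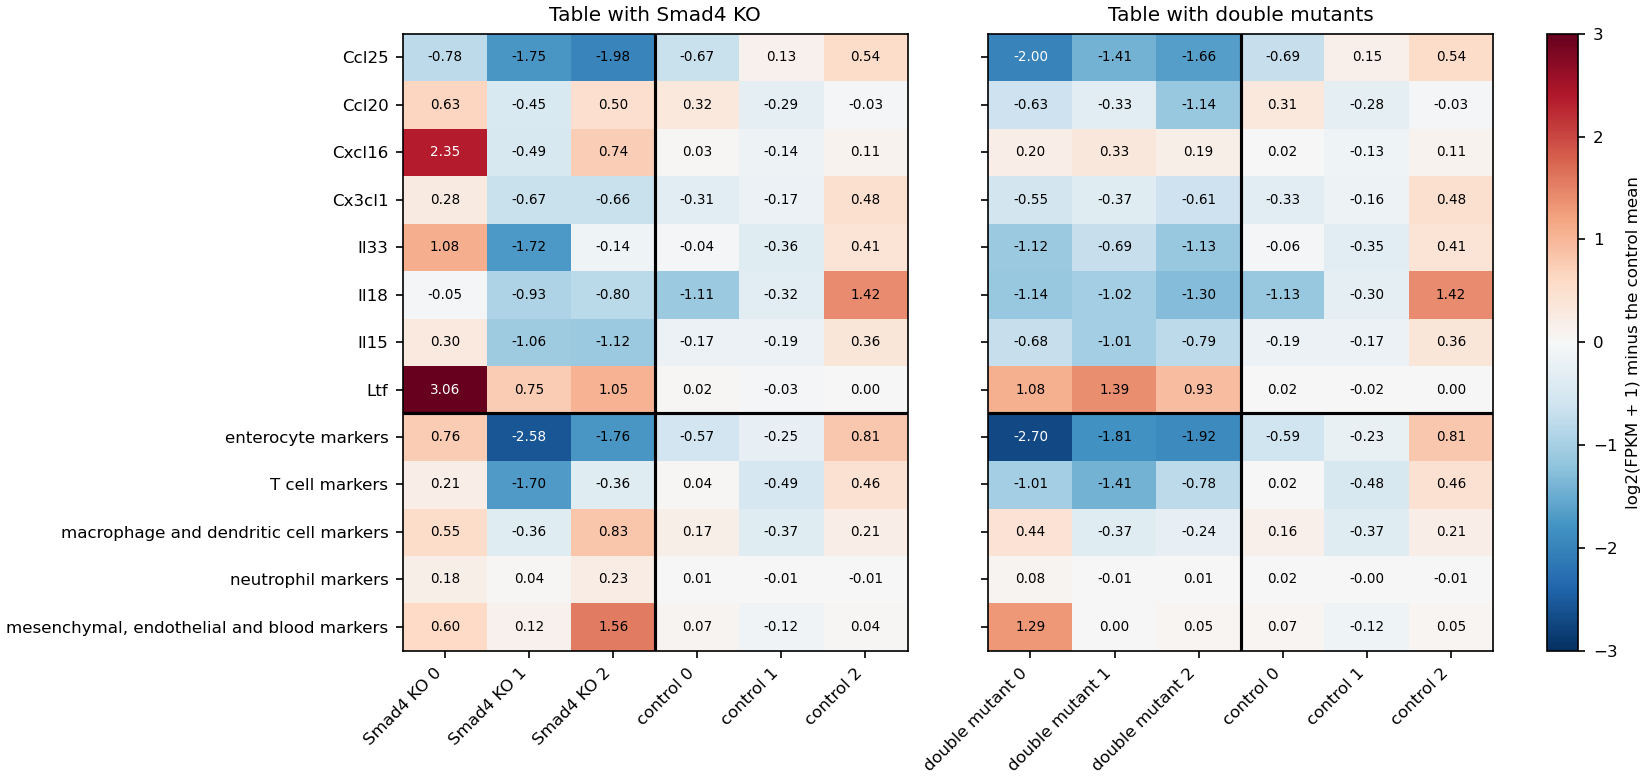
Log2(FPKM + 1) of the 8 tested genes and mean log2(FPKM + 1) of marker lists, minus the control mean of the same table, in each library. Mutant libraries are left of the black vertical line and controls right of it, and red is higher. Smad4 KO library 0 is the highest Smad4 KO library in all 8 gene rows. The 3 double mutant libraries are below all controls for Ccl25, Ccl20, Cx3cl1, Il33, Il15 and the enterocyte and T cell lists, a pattern of 21.3% of all genes tested.

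Other genes of the same pathways were counted by 6 lists, for receptors, for processing, for other chemokines, for other cytokines, for NF-kappaB responses and for mucosal defence. In Smad4 KO crypts limma called 0 genes of these lists. At an unadjusted limma p below 0.05 the counts there were 1 of 7 tested receptors, 1 of 15 processing genes, 1 of 8 other chemokines, 3 of 8 other cytokines, 4 of 15 NF-kappaB genes and 3 of 9 defence genes, where 19.1% of all genes tested were below that p. With the pooled spread, Mif was called higher and Tnfsf10 lower in Smad4 KO crypts, and 0 other genes of the lists were called. The median log2 fold changes in Smad4 KO crypts were -0.21 for receptors, -0.10 for processing genes, -0.06 for chemokines, 0.35 for cytokines, -0.01 for NF-kappaB genes and 0.22 for defence genes. In double mutants they were -0.61, -0.25, -0.34, 0.40, -0.11 and -0.38 in the same order.

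Among 15 receptors of these ligands, 7 passed the filter. In double mutants limma called 0 of them, 2 of 7 had an unadjusted p below 0.05, where 36.6% of all genes tested did, and 0 were called with the pooled spread. Il15ra, which presents Il15 to neighbouring cells, had 12.5, 8.49 and 7.005 FPKM in Smad4 KO and 10.2, 8.035 and 11.1 FPKM in control crypts, a log2 fold change of -0.09 (limma adjusted p = 0.869). In double mutants it had 9.45, 9.27 and 8.16 FPKM, against 10.5, 8.51 and 11.6 FPKM in controls, a log2 fold change of -0.16 (limma adjusted p = 0.408). Both comparisons overlapped for Il15ra. Il2rb, the signalling chain of the Il15 receptor, had 1.05, 1.19 and 1.93 FPKM in double mutants and 3.43, 2.27 and 6.07 FPKM in control crypts, separate but not called (log2 fold change -0.99, limma adjusted p = 0.0732). Ccr9, the receptor of Ccl25, had 2.38, 0.309 and 1.43 FPKM in Smad4 KO and 1.65, 0.6355 and 2.865 FPKM in control crypts, which overlapped. Ccr9 had 0.952, 0.430 and 0.835 FPKM in double mutants and 1.70, 0.673 and 2.99 FPKM in their controls, also overlapping.

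Of 17 genes for shedding of membrane-held chemokines, for inflammasomes and for Il18 antagonism, 15 were tested, of which Naip2, an inflammasome sensor of bacterial secretion systems, fell in double mutants. Naip2 had 14.3, 16.3 and 14.1 FPKM in double mutants and 19.6, 20.15 and 20.8 FPKM in control crypts (log2 fold change -0.42, limma adjusted p = 0.0307, or 0.0528 with the pooled spread). This was 1 of 15 genes, where 9.09% of all genes tested were called lower. Casp1, the caspase that activates Il18, had 69.1, 85.3 and 75.7 FPKM in double mutants and 86.9, 114.6 and 147.5 FPKM in control crypts, separate but not called (log2 fold change -0.57, limma adjusted p = 0.102). Pycard, the adaptor between sensors and Casp1, had 177, 216 and 175.6 FPKM in double mutants and 167, 218 and 211 FPKM in control crypts, which overlapped.

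Of 28 other chemokines, 8 were tested in the table with Smad4 KO and 6 in the table with double mutants, where Ccl5 fell. That was 1 of 6 genes, against 9.09% of all genes tested called lower. Ccl5, a chemokine that T cells themselves produce, had 37.9, 15.3 and 31.3 FPKM in double mutants and 116, 92.4 and 183 FPKM in control crypts, clearly apart (log2 fold change -2.21, limma adjusted p = 0.0205, or 0.106 with the pooled spread). Ccl6 was the highest of this list in controls and had 359, 241 and 316.5 FPKM in double mutants and 429, 285 and 301 FPKM in control crypts, which overlapped.

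Of 26 other cytokines, 8 were tested in the table with Smad4 KO and 7 in the table with double mutants, where Mif rose and Tnfsf10 fell. Each was 1 of 7 genes, against 9.39% of all genes tested called higher and 9.09% called lower. Mif, macrophage migration inhibitory factor, had 80.2, 65.05 and 63.05 FPKM in double mutants and 24.0, 25.2 and 21.7 FPKM in control crypts (log2 fold change 1.51, limma adjusted p = 0.00694). Tnfsf10, the death ligand TRAIL, had 12.9, 17.3 and 17.05 FPKM in double mutants and 30.8, 28.3 and 34.1 FPKM in control crypts (log2 fold change -0.94, limma adjusted p = 0.0155). For both genes the groups were far apart. In Smad4 KO crypts Mif had 66.1, 41.6 and 63.0 FPKM, against 23.3, 23.75 and 20.8 FPKM in controls (log2 fold change 1.27, limma adjusted p = 0.106). Tnfsf10 had 12.7, 20.5 and 16.1 FPKM in Smad4 KO and 29.8, 26.7 and 32.7 FPKM in control crypts (log2 fold change -0.84, limma adjusted p = 0.13). Both genes were separate from the controls there too.

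Of 16 NF-kappaB response genes, 15 were tested. Of these, 1 was called higher and 2 lower in double mutants, against 9.39% and 9.09% of all genes tested. In double mutants Bcl3, a nuclear partner of NF-kappaB, rose, with 33.4, 33.9 and 24.9 FPKM against 21.3, 13.8 and 18.8 FPKM in controls (log2 fold change 0.75, limma adjusted p = 0.0448). Tnfaip3, the inhibitor A20, fell, with 4.17, 5.45 and 4.90 FPKM in double mutants against 7.88, 9.23 and 9.56 FPKM in controls (log2 fold change -0.76, limma adjusted p = 0.0183). Tnip1, which works with A20, fell, with 15.7, 20.1 and 17.8 FPKM in double mutants against 22.9, 27.4 and 30.9 FPKM in controls (log2 fold change -0.57, limma adjusted p = 0.0434, or 0.0994 with the pooled spread). Nfkbia and Nfkb1, the highest of this list in controls, overlapped in both comparisons.

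Among 14 iron-binding and mucosal defence genes, 13 had a row and 9 were tested, of which Pigr fell in double mutants. That was 1 of 9 genes, near the 9.09% of all genes tested called lower. Pigr, the receptor that carries IgA across the epithelium, had 491, 757 and 657 FPKM in double mutants and 996, 1502 and 1373 FPKM in control crypts, separate (log2 fold change -1.02, limma adjusted p = 0.0396). In Smad4 KO crypts Pigr had 613, 673 and 519 FPKM, against 966, 1417 and 1316 FPKM in controls, also separate (log2 fold change -1.02, limma adjusted p = 0.134). Duox2, which makes hydrogen peroxide at the epithelial surface, overlapped in both comparisons.

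**Figure D4:**
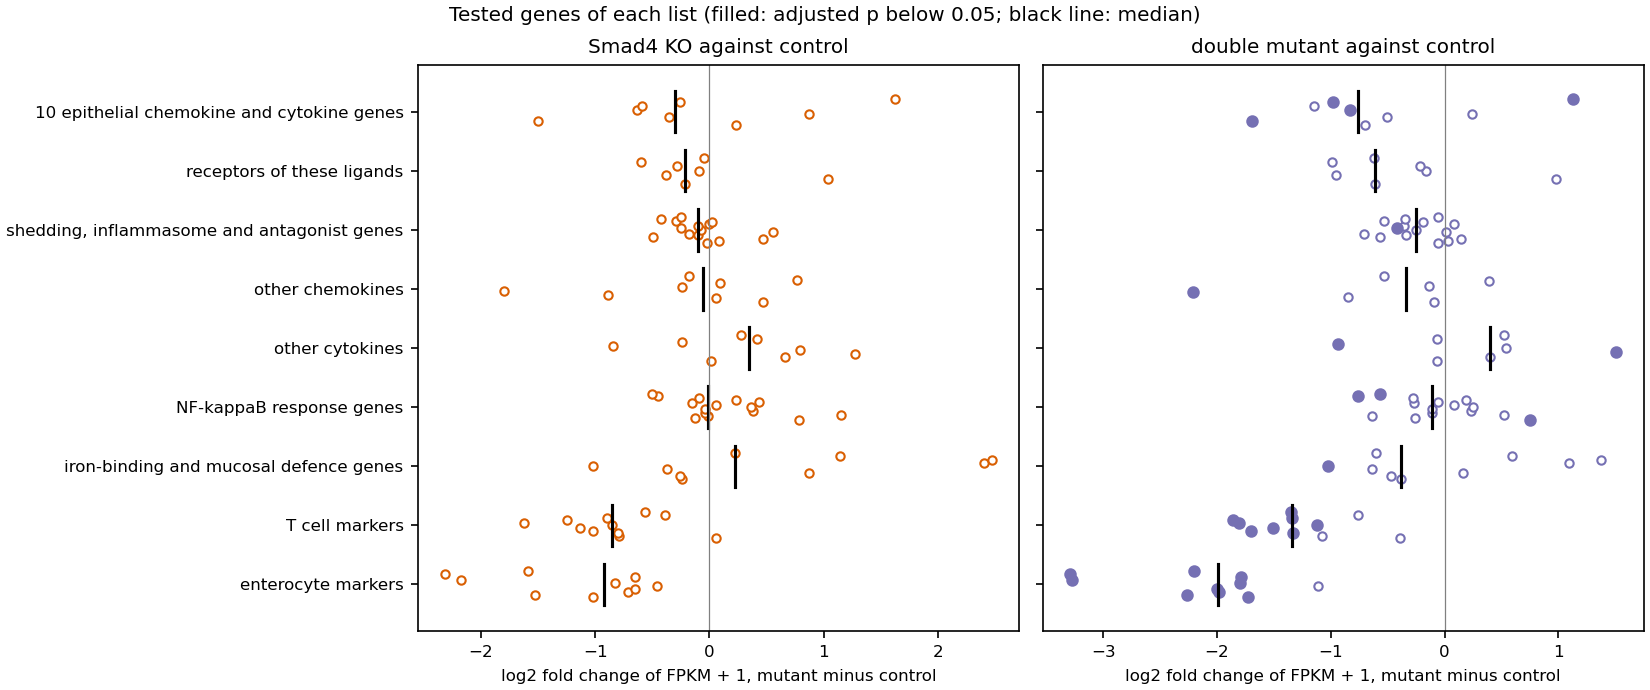
Log2 fold changes, mutant minus control on the log2(FPKM + 1) scale, of the tested genes of each list. Points are genes, filled where the adjusted p was below 0.05, and black lines are medians. In double mutants 9 of 10 enterocyte markers and 8 of 11 T cell markers are filled and lower, against 9.09% of all genes tested. No list has a filled point in Smad4 KO crypts.

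Among cell markers, limma called 0 of 10 enterocyte and 0 of 11 tested T cell genes in Smad4 KO crypts. There 1 and 0 of them had an unadjusted limma p below 0.05, against 19.1% of all genes tested. In double mutants 9 of 10 enterocyte genes and 8 of 11 tested T cell genes were called lower, against 9.09% of all genes tested. The enterocyte genes were led by the sugar enzyme Sis (log2 fold change -3.29, limma adjusted p = 0.0107). Among the T cell genes were Cd3g (log2 fold change -1.70, limma adjusted p = 0.0216) and Gzmb (log2 fold change -1.86, limma adjusted p = 0.0287). The stem cell genes Lgr5 and Smoc2 rose in double mutants (1.08 and 0.79 on the log2 scale, with limma adjusted p of 0.0203 and 0.0142), and with the pooled spread the call of Lgr5 was lost (0.195). Lgr5 and Smoc2 were 2 of 6 stem cell genes, against 9.39% of all genes tested called higher. With the pooled spread, 2 enterocyte genes and 0 T cell genes were called lower in double mutants, against 6.53% of all genes tested. Of the other marker lists, Cd14 among macrophage and dendritic cell markers rose and Clca3 among goblet cell markers fell in double mutants (the call of Cd14 was lost with the pooled spread), and limma called 0 genes of the B cell, mesenchymal and blood, epithelial, Paneth cell and tuft cell lists there. Cd14 was 1 of 6 tested genes of its list and Clca3 1 of 7, against 9.39% of all genes called higher and 9.09% lower. With the pooled spread, 1 of 6 tuft cell genes was called lower in double mutants, against 6.53% of all genes tested. In Smad4 KO crypts 1 of 7 goblet cell genes was called lower with it, against 3.81% of all genes called in either direction.

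The genes that varied most like each of the 8 were ranked by Pearson's r of log2(FPKM + 1) over the 6 libraries of each table, taking the smaller of both values, among 10736 genes. Since the tables share their controls and groups differ, these values are descriptions. They are also the largest among 10736 genes over only 6 libraries, so they are high partly through that selection. Ccl25 was most like Rmdn1 (0.995), Tmem86a (0.994) and Cat (0.993), the gene of catalase. Il15 was most like Clec2e (0.998), and Il33 was most like Igsf23 (0.983). Ccl20 was most like Zbp1 (0.944), Oasl1 (0.921) and Irf7 (0.92), all of which are known interferon-induced genes. Cxcl16 was most like Junb (0.948), an early-response transcription factor, Ltf was most like Ppl (0.975), Cx3cl1 had 3 genes at 0.99 (Mdh2, Ms4a18 and Zfp747), and Il18 was most like Ap5s1 (0.959). Among the 8 genes themselves, the pairs with an r of at least 0.86 in both tables are given. Cx3cl1 and Il15 had an r of 0.95 in the table with Smad4 KO and 0.86 in that with double mutants. Cx3cl1 and Il18 had 0.86 and 0.98 in the same order, and Cxcl16 and Ltf 0.90 and 0.87. Ltf passed the filter only through its mutant libraries, and both Cxcl16 and Ltf were far highest in Smad4 KO library 0.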

How the data were processed

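RNA-seq values were deposited by the authors as FPKM per gene, in 1 table of Smad4 KO with control and 1 of double mutant with control libraries. The submitters' processing notes name TopHat2 2.1.1, Cuffdiff 2.2.1 and Cuffnorm 2.2.1 with build mm9. Which gene annotation was used is not given in the sources used. The labels' protocols name the Illumina TruSeq RNA kit v2, which does not mark strand. The same control libraries differed between the tables by a constant factor (1.03, 1.06 and 1.04), so no test crossed tables, and Smad4 KO was not tested against double mutants.

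Within each table, log2(FPKM + 1) was fitted with limma 3.58.1 (R 4.3.3), on a scale that understates changes of low genes. Genes needed a mean of at least 1 FPKM over 6 libraries. A mean-variance trend was allowed for in the moderation. Two-sided p-values were adjusted by Benjamini-Hochberg over all genes tested, with 0.05 as threshold. Single genes were also compared by the exact permutation test over 20 splits. The fits were tested on simulated data with independent errors for each gene and changes planted only in genes of higher level. That simulation does not cover changes in low genes or libraries in which many genes shift together. Errors are SD of FPKM or SE of the log2 fold change.

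All 10 genes were named. From each of the 17 gene lists, called genes (up to 3 by smallest p) and the 2 highest in controls could be named. Ccr9, Gapdh, the counted exceptions and the neutrophil markers were named outside this rule. Genes and lists were chosen with earlier results of these data known. Alternatives changed the pseudocount, filter, scaling, trend, spread, replicate block, sex term and libraries. By sex-linked transcripts, controls held 1 female and 2 male libraries, and each mutant group 2 female and 1 male. Sex was therefore not balanced between mutants and controls. Promoter sequences were matched by symbol in a RefSeq table of GRCm38.p6, and exons came from GENCODE annotation.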

Additional observations from a re-analysis of the deposited data

How the results depend on the processing

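In Smad4 KO crypts, 0 of the 10 genes were called in either direction under every alternative run. Over all genes, limma called 1 higher and 3 lower there. The count of genes higher became 3 with a pseudocount of 0.1, 0 with a pseudocount of 5, 2 with a mean of at least 5 FPKM, 2 with median-of-ratios factors (3 lower), 4 with quantile normalization (4 lower), 4 without the 50 highest genes in the scaling (3 lower) and 0 with sex as a covariate. With the spread pooled over 9 libraries it became 274 higher and 177 lower. Leaving out single libraries gave 2 to 8 higher and 3 to 8 lower, log2 fold changes of -0.93 to 0.47 for Il33 and of -1.15 to 0.12 for Il18, so their direction in Smad4 KO crypts rested on single libraries.

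In double mutants limma called 1104 genes higher and 1069 lower over all genes. Without a filter 621 were lower, and leaving out single libraries gave 18 to 688 higher and 12 to 898 lower, lowest without double mutant library 2. Each of the 6 libraries, left out alone, lowered the count of genes higher by over 1.5 times, and each except control 0 (898) did so for genes lower. Of the 8 tested genes, 3 were called lower, against 9.09% of all genes tested, and 1 was called higher. The gene called higher was Ltf, which reached the filter only through its mutant libraries. The higher count was 0 with a mean of at least 5 FPKM, which removes Ltf from the test, and 0 with the pooled spread. The lower count was 1 without a filter and 1 with the pooled spread. Leaving out single libraries gave 0 to 1 higher and 0 to 2 lower. Fits that leave out a library also hold fewer libraries, and the cause of these losses was not tested.

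Replicate numbers were shared by the groups, but same-numbered libraries did not deviate together in every pair (correlations of -0.111, 0.223 and -0.099 in Smad4 KO and 0.072, 0.132 and 0.037 in double mutants). Each double mutant library correlated best with the control of its own number, and not every Smad4 KO library did. With the replicate block, limma called 0 genes higher and 1 lower in Smad4 KO crypts and 732 higher and 870 lower in double mutants. Of the 8 tested genes it called 1 higher and 2 lower in double mutants, where Il33 had a limma adjusted p of 0.075.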
